A study of Mus musculus with 5 samples.

Results

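The 10 genes described here make peptides for MHC class I molecules, carry them, present them or regulate that machinery: B2m, H2-D1, Tap1, Tap2, Tapbp, Psmb8, Psmb9, Psmb10, Nlrc5 and Erap1. They were listed by name from their known roles, and for each gene the probe set of highest mean among those with only its symbol was used. Of the 10 genes, 9 had such a probe set, out of 19938 genes of the array, and all 9 passed the expression filter that left 6603 genes for testing. H2-D1 did not, because both probe sets that list it also list H2-K1. RNA came from CD45+ leukocytes sorted from the pancreas of 5 wild-type female NOD mice of 10 weeks, 1 array for each mouse, without any treated or control group. Each pancreas was imaged by MRI before it was taken, and T2, the transverse relaxation time, was 28.98 ms (mouse 5), 30.02 ms (mouse 4), 32.77 ms (mouse 3), 35.24 ms (mouse 2) and 35.3 ms (mouse 1). The question set by the study was which transcripts of the infiltrate vary with the MRI signal. Use of a contrast agent is not stated in the labels, nor is the direction of T2 that goes with insulitis.

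Class I molecules show peptides from a cell's own proteins to CD8 T cells. Proteasomes cut the proteins, the TAP transporter moves the peptides into the endoplasmic reticulum, aminopeptidases trim them there, and the loading complex places them on a heavy chain paired with beta-2 microglobulin. Interferon gamma raises much of this machinery, and swaps catalytic subunits of the proteasome for inducible ones that form the immunoproteasome. NLRC5 is the transactivator of class I genes and acts through a promoter module of neighbouring boxes, among them X2 and Y. NOD mice develop autoimmune diabetes spontaneously, and CD8 T cells that recognise islet peptides on class I take part in that disease.

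Promoter windows of 3 members are shown as examples: B2m, Tap1 and Tapbp. Nlrc5 and Tap2 had no window. Sequences are from RefSeq, build GRCm38.p6, which is the C57BL/6J genome and not that of NOD. Each window runs 5′ to 3′ along the gene, from 250 bases before the annotated start to 50 bases from it onwards, and 8 members had one. The windows are chr2:122147437-122147736 (plus strand) for B2m, chr17:34187306-34187605 (plus strand) for Tap1 and chr17:33919228-33919527 (plus strand) for Tapbp. Capitals mark matches, on either strand, to TGACG (core of the X2 box), CCAAT (Y box), GAAANNGAA (core of sites of interferon regulatory factors) and GGGATTCCC (a kB site).
B2m: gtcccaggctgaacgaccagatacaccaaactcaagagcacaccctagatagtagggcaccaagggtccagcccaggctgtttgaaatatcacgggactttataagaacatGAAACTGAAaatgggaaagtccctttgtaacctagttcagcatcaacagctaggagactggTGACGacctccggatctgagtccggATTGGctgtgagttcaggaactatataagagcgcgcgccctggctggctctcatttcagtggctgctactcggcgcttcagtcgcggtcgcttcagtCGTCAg
Tap1: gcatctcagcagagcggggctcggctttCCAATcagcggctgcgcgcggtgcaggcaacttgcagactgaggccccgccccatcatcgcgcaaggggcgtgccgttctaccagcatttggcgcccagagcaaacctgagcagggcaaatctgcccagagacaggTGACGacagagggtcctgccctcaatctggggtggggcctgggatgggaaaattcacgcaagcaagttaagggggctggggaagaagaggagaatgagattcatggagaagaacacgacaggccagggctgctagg
Tapbp: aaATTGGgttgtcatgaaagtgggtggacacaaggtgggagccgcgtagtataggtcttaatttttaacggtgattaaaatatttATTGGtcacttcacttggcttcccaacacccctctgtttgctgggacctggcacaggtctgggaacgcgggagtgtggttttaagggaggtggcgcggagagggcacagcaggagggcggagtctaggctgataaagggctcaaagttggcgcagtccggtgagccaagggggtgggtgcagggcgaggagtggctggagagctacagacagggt

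B2m held GAAACTGAA at position -139 from the start, TGACG at -78 and CCAAT on the other strand at -53. It also held TGACG on the other strand at 45. Tap1 held CCAAT at -222 and TGACG at -86. The Tap1 and Psmb9 genes run away from each other with 225 bases between their starts, so that their windows share 275 bases and the same pair of boxes. Tapbp held CCAAT on the other strand at -248 and -165, without TGACG. Among the 8 windows of members, 4 held both TGACG and CCAAT (B2m, H2-D1, Psmb9 and Tap1), as did 7.73% of the 32851 windows in the table. This count enters the shared boxes of Tap1 and Psmb9 for both genes, and it ignores order and spacing. In H2-D1, TGACG lay at -101, with CCAAT at -53 and, on the other strand, at -76. In Tap1, CCAAT lay before TGACG, at the positions given above. The windows of Erap1, Psmb8 and Psmb10, which are not shown, held neither. TGACG was in 20.8% of all windows, CCAAT in 37.4%, GAAANNGAA in 8.56% and GGGATTCCC in 0.353%. The kB letters were found in the H2-D1 window alone among the 8. In Erap1, GAAANNGAA matched on the other strand at -9 and -3, 2 matches that overlap. A match describes these letters and does not show that a factor binds there.

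Before the results, the state of the libraries in brief. Ptprc, the gene of CD45, had a log2 intensity of 11.06 ± 0.10 (SD, n = 5). The mean over 3 islet genes lay between 3.37 and 3.47 in the 5 mice, and none of them passed the filter, nor did any of 4 fibroblast genes. Of 8 acinar genes listed 4 passed, with a mean between 6.70 and 7.68. The cells differed in make-up between mice: the mean over 10 T cell genes was 8.43 for mouse 5, 8.60 for mouse 4, 8.59 for mouse 3, 9.01 for mouse 2 and 8.15 for mouse 1. The mean over 9 B cell genes was 8.99, 8.996, 8.43, 8.41 and 9.31 in the same order, and that over 5 neutrophil genes was 8.23, 6.92, 9.03, 7.35 and 7.69. The macrophage mean, over 10 genes, was 8.78, 8.74, 8.17, 7.56 and 7.47 in that order, lower at each higher T2. On 3 or more of the arrays, 38.2% of the tested genes carried one identical value, which lowers their residual spread. In such mixed cells, fewer cells of a type and less RNA per cell cannot be told apart.

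No class I processing gene passed the test for a change with T2, and their slopes lay on both sides of 0. Slopes below are changes in log2 intensity per ms of T2, each with the standard error of the least-squares line. The limma p-values rest on the spread of 5 separate mice around that line, moderated by the spread over all genes tested. No member passed at an adjusted p under 0.05 (0 of 9, limma with Benjamini-Hochberg over 6603 genes), as was true of all genes tested (0%). At an unadjusted p under 0.05 the count was also 0 of 9, where 5.29% of all genes fell under that threshold. Slopes were negative for 4 members and positive for 5, against 67.9% negative over all genes. This split moved with the scaling, to 2 negative and 7 positive after a second quantile normalization and to 7 negative and 2 positive relative to Ptprc. The median slope was 0.0016 log2 per ms over the 9 members and -0.0074 over all genes tested. The lowest adjusted p among members was 0.828 by limma, shared by Psmb8 and B2m. The 95% intervals of limma's moderated fit differ much in width from gene to gene. Across the full T2 span of 6.32 ms, the fitted fold was 1.00 for Psmb10 (0.92 to 1.08), 0.99 for Tap2 (0.90 to 1.09) and 1.07 for B2m (0.96 to 1.20). For Nlrc5 it was 1.01 with an interval from 0.50 to 2.07, and for Tap1 0.93 with an interval from 0.60 to 1.45. The interval of Nlrc5 is the widest of the 9.

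**Figure D1:**
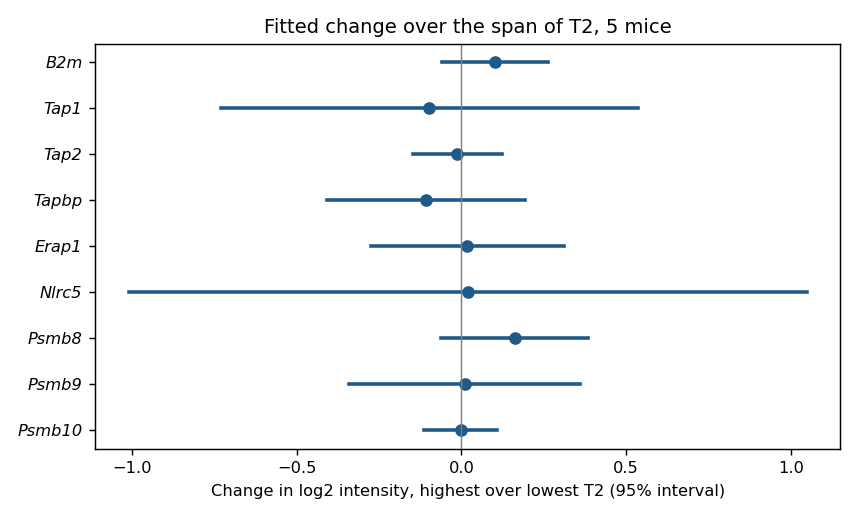
Fitted change in log2 intensity across the T2 span for the 9 members, as points, with 95% intervals of limma's moderated fit over 5 mice as lines. Every interval includes 0, from the narrow ones of Psmb10 and Tap2 to that of Nlrc5, which spans -1.01 to 1.05.

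The class I molecule itself comes first. B2m, beta-2 microglobulin, the light chain of every class I molecule, had a log2 intensity of 11.70 for mouse 5, 11.77 for mouse 4, 11.82 for mouse 3, 11.88 for mouse 2 and 11.76 for mouse 1. It was highest in mouse 2 and lowest in mouse 5, and the whole range was 0.18 log2, a ratio of 1.13. Its slope was 0.016 ± 0.0094 log2 per ms (SE, n = 5; limma adjusted p = 0.828; exact two-sided permutation p = 0.192). H2-D1 encodes a heavy chain, and NOD mice carry the Db form. The 2 probe sets that list H2-D1 together with H2-K1 and LOC547349 cannot be assigned to one gene. The brighter one lay between 11.13 and 11.17 in the 5 mice, with equal values in 3 of them. The dimmer one read 8.65 in mouse 1 and between 8.75 and 8.78 in the other 4 mice, again with 3 equal values. These shared sets thus varied little between mice, and neither was entered in the tests.

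Of the transporter's subunits, Tap1 had the wider spread between mice and Tap2 the narrower. Tap1, one subunit of the peptide transporter, read 7.98 for mouse 5, 8.46 for mouse 4, 8.15 for mouse 3, 8.23 for mouse 2 and 7.95 for mouse 1. Mouse 4 was the highest and mouse 1 the lowest, a ratio of 1.43, and the neighbours in T2 lay far apart at both ends. Its SD of 0.21 log2 exceeded that of 83.7% of the genes tested. The slope was -0.015 ± 0.040 (SE, n = 5; limma adjusted p = 0.966). Tap2, the partner subunit, read 7.58 for mouse 5, 7.61 for mouse 4, 7.58 for mouse 3, 7.63 for mouse 2 and 7.53 for mouse 1. The whole range of Tap2 was a ratio of 1.08, and its SD of 0.039 exceeded that of 17.3% of genes.

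Tapbp, tapasin, which bridges the transporter and the empty class I molecule, was set apart by 1 mouse. It read 9.39 for mouse 5, 9.63 for mouse 4, 9.42 for mouse 3, 9.41 for mouse 2 and 9.37 for mouse 1. Mouse 4 lay above the other 4, which lay between 9.37 and 9.42, and the gap to its nearest neighbour was 0.825 of the whole range. A gap share above 0.71 was found in 1 of 9 members and in 31.6% of all genes tested, many of them with equal values. Among genes without equal values on 3 or more arrays the share was 15.3%. The slope of Tapbp was -0.017 ± 0.019 (SE, n = 5; limma adjusted p = 0.84), -0.00031 without mouse 4, and -0.044 without mouse 5 (limma unadjusted p = 0.0393, adjusted p = 0.949). Erap1, the aminopeptidase that trims peptides in the endoplasmic reticulum, read 7.91 for mouse 5, 7.89 for mouse 4, 7.72 for mouse 3, 7.97 for mouse 2 and 7.89 for mouse 1. Mouse 3 was lowest, the other 4 lay close together, and the slope was 0.0028 ± 0.018.

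The 3 inducible catalytic subunits of the immunoproteasome did not share one pattern. Psmb8 read 8.13 for mouse 5, 8.22 for mouse 4, 8.27 for mouse 3, 8.41 for mouse 2 and 8.23 for mouse 1. From mouse 5 to mouse 2 each higher T2 went with a higher Psmb8 value, and mouse 1, at the highest T2, lay at the level of mouse 4. Its slope, 0.025 ± 0.014 (SE, n = 5), was the steepest of the members, with a fitted fold of 1.12 (95% interval 0.96 to 1.31; limma adjusted p = 0.828; exact two-sided permutation p = 0.167). The smallest p that the 120 orders of 5 mice allow is 0.00833. Without mouse 1 the slope was 0.040 for Psmb8 (limma unadjusted p = 0.012, adjusted p = 0.422) and 0.026 for B2m (unadjusted p = 0.0244, adjusted p = 0.455). Without mouse 2 the slope was 0.013 for Psmb8 and 0.0092 for B2m, and without mouse 5 it was 0.0084 for B2m, so the size of both depends on single animals.

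Psmb9 read 7.73 for mouse 5, 7.88 for mouse 4, 7.93 for mouse 3, 7.90 for mouse 2 and 7.68 for mouse 1. Mice 1 and 5, at opposite ends of T2, were the 2 lowest. Psmb9 shares the promoter region printed above with Tap1. The 2 genes differed in the highest mouse, which was mouse 4 for Tap1 and mouse 3 for Psmb9. Psmb10 read 7.601 in mouse 1, 7.69 in mouse 2 and 7.64 in each of the other 3 mice, and its SD of 0.030 was the smallest of the members. Equal values in 3 mice make that SD small.

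The constitutive subunits that these replace did not pass the test either. Psmb7, the counterpart of Psmb10, had a slope of -0.030 ± 0.023 (SE, n = 5), Psmb6, the counterpart of Psmb9, 0.025 ± 0.031, and Psmb5, the counterpart of Psmb8, 0.016 ± 0.037. Psmb5 was highest in mouse 3, at 7.27 against 6.80 to 6.89 in the other 4. The mean of the inducible subunits minus that of the constitutive ones was 0.61 for mouse 5, 0.80 for mouse 4, 0.52 for mouse 3, 0.74 for mouse 2 and 0.72 for mouse 1. These differences compare mice and not subunits, since probe sets differ in brightness. The order of the mice followed T2 in neither direction, and the slope of the difference was 0.0053 ± 0.022 log2 per ms (SE, n = 5). The rest of the proteasome was even: the mean over 28 core and cap genes ranged from 7.35 to 7.42. Of these 28 genes 13 had a negative slope, 14 a positive and 1 a slope of 0, with 0 past the adjusted threshold, and the split was 6 to 22 after a second quantile normalization and 24 to 4 relative to Ptprc. At an unadjusted p under 0.05 were Psmd1, a base subunit of the cap, with -0.038 ± 0.0095 (limma adjusted p = 0.612) and Psmb3, a core subunit, with 0.043 ± 0.012 (limma adjusted p = 0.668).

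**Figure D2:**
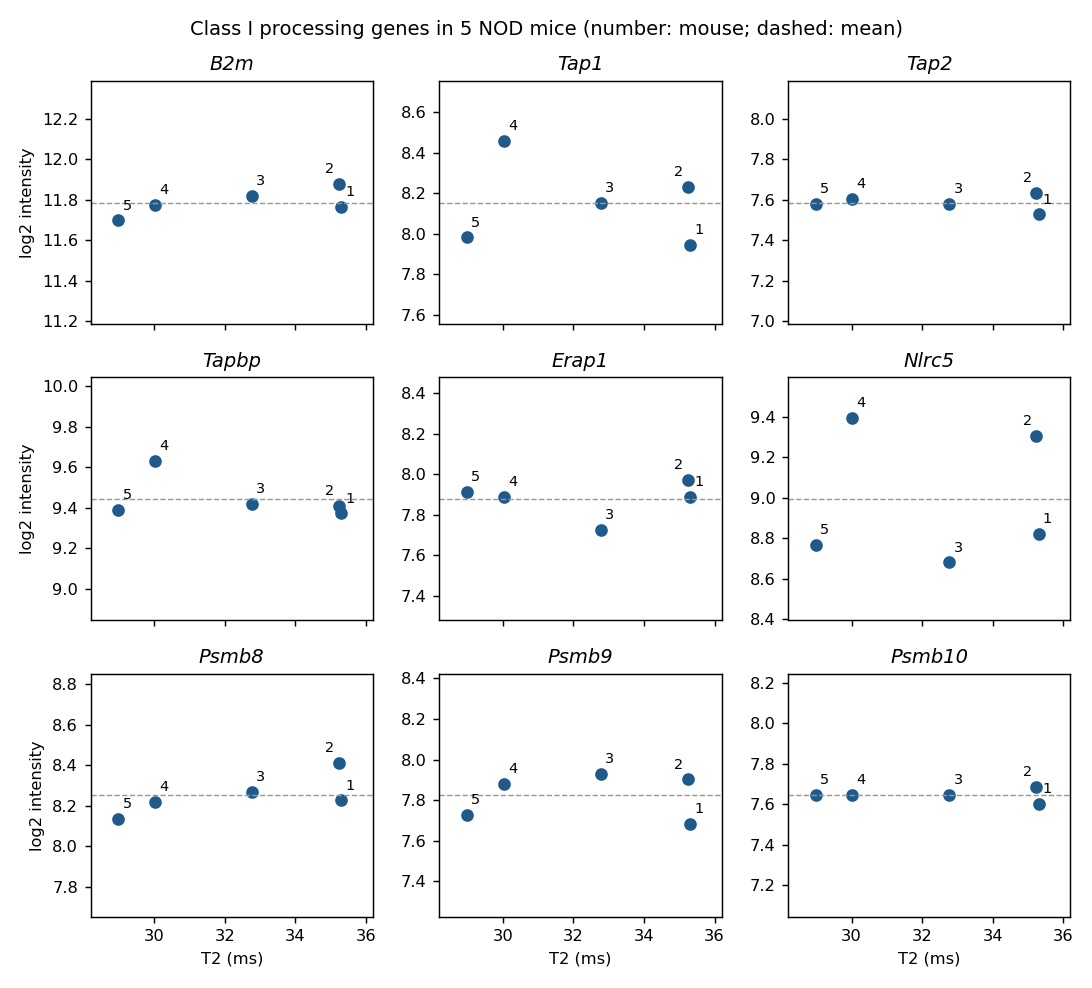
Log2 intensity of the 9 members against T2 in ms, 1 point for each of 5 mice, numbered, with the mean of the gene as a dashed line and a y axis of the same span in every panel. Nlrc5 and Tap1 spread widely without following T2, Tapbp is set apart by mouse 4, and Tap2 and Psmb10 are nearly flat.

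Nlrc5, the transactivator, varied most of the 9 members. It read 8.77 for mouse 5, 9.39 for mouse 4, 8.68 for mouse 3, 9.31 for mouse 2 and 8.82 for mouse 1. Mice 4 and 2, with T2 values far from each other, lay well above the other 3, and the highest value was 1.64 times the lowest. The SD of 0.33 log2 exceeded that of 95% of the genes tested. The slope was 0.0030 ± 0.065 (SE, n = 5; limma adjusted p = 1). Nlrc5 is covered by 19 probe sets, more than any other member, and mice 2 and 4 were the 2 highest in 15 of them. That order was found in 3.8% of the genes tested, a share over genes and not over probe sets. The pair of mice was chosen after the Nlrc5 values were seen, so this share is no support for the pattern. The sets cover 1 gene in the same 5 RNA samples, so they check the probes and not the mice. The highest value was in mouse 2 in 9 sets, in mouse 4 in 9 and in mouse 3 in 1. Averaged over all sets, mouse 5 read 7.26, mouse 4 7.61, mouse 3 7.31, mouse 2 7.61 and mouse 1 7.27. Slopes of the single sets ran from -0.052 to 0.042, and 7 of 19 were negative.

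**Figure D3:**
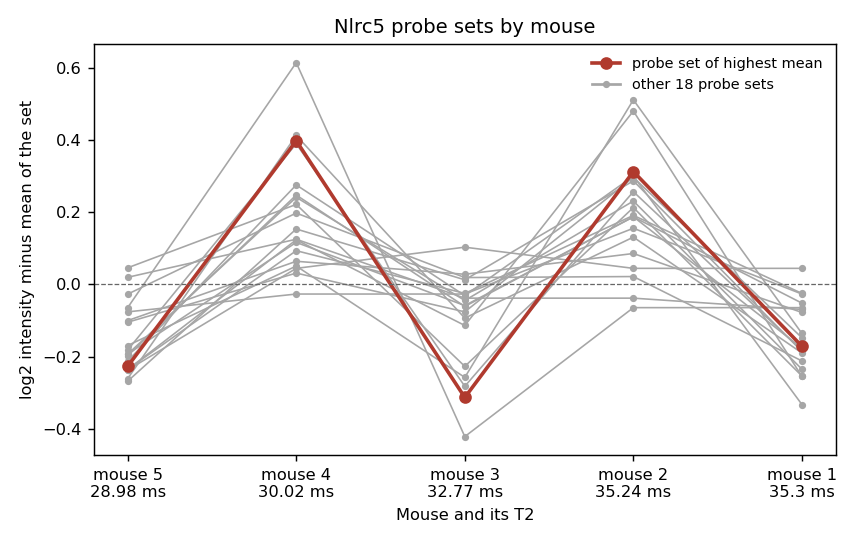
Log2 intensity of the 19 Nlrc5 probe sets in each mouse, minus the mean of the set, with mice in order of rising T2 and the set of highest mean in red. Mice 4 and 2 are the 2 highest in 15 of the 19 sets.

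The neutrophil genes stood in the opposite order of mice to the brightest Nlrc5 probe set, but not to the average over its 19 sets. The neutrophil mean was lowest in mouse 4 (6.92) and next lowest in mouse 2 (7.35), followed by mouse 1 (7.69), mouse 5 (8.23) and mouse 3 (9.03), while the brightest Nlrc5 set ran from mouse 4 through mice 2, 1 and 5 down to mouse 3. In the average over all 19 sets mice 2 and 4 were again the 2 highest, but mouse 3, at 7.31, was above mouse 1 (7.27) and mouse 5 (7.26). All 5 neutrophil genes past the filter, out of 8 listed, were highest in mouse 3. S100a8, a neutrophil calcium-binding protein, read 8.09 for mouse 5, 6.597 for mouse 4, 8.84 for mouse 3, 7.34 for mouse 2 and 7.45 for mouse 1. Neutrophils were not the only cell type in which mice 2 and 4 stood at one end. For the T cell mean they were the 2 highest, at 9.01 and 8.60, with mouse 3 at 8.59 and mouse 1 lowest at 8.15. The part of neutrophil or T cell content in the Nlrc5 values was not tested. The tested gene whose pattern was most like that of Nlrc5 was Il21r, the interleukin-21 receptor of lymphocytes, with a root mean square difference of 0.13 log2 over the 5 mice after centring each gene, followed by Ddx52 at 0.14. For Tap1 they were Tubb5 (0.045) and Trib2 (0.056), and for Tapbp Bub3 (0.0096) and Foxp4 (0.013). For Psmb9 they were Tmem9b (0.028) and H2-K2 (0.035), the latter another gene of the MHC region. B2m was nearest to Mocs3 (0.015) and Timmdc1 (0.018), and Psmb8 to Shmt2 (0.014) and Stx6 (0.016). The nearest genes were, for Tap2, Eif3i and Cstf1, for Psmb10 Cd53 and Prpf31, and for Erap1 Ap1b1 and Smad4. With 5 mice such likeness is weak, and it was used as a description.

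Mice 2 and 1 had nearly the same T2, and the members differed between them. All 9 members read higher in mouse 2 than in mouse 1, against 31.6% of all genes tested. Over all 6603 genes 2084 were higher in mouse 2, 2982 were lower and 1537 were equal, with a median difference of 0, while the median over the members was 0.11 log2. Nlrc5 differed most, with a ratio of 1.40, followed by Tap1 with 1.22, Psmb9 with 1.16 and Psmb8 with 1.14. B2m had a ratio of 1.08 and Tapbp of 1.02. These are 2 animals, 1 array each, so the difference has no replicate check and no p. The share of all genes that were higher in mouse 2 depended on the scaling: it was 58.1% with arrays centred on their medians, 62.4% after a second quantile normalization and 80.2% relative to Ptprc. All 9 members were higher in mouse 2 under each, settings that were chosen after the data were seen. Relative to Ptprc the median difference was 0.27 over the members and 0.15 over all genes. Of the 28 standard proteasome genes 18 were higher in mouse 2, 1 was lower and 9 were equal.

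**Figure D4:**
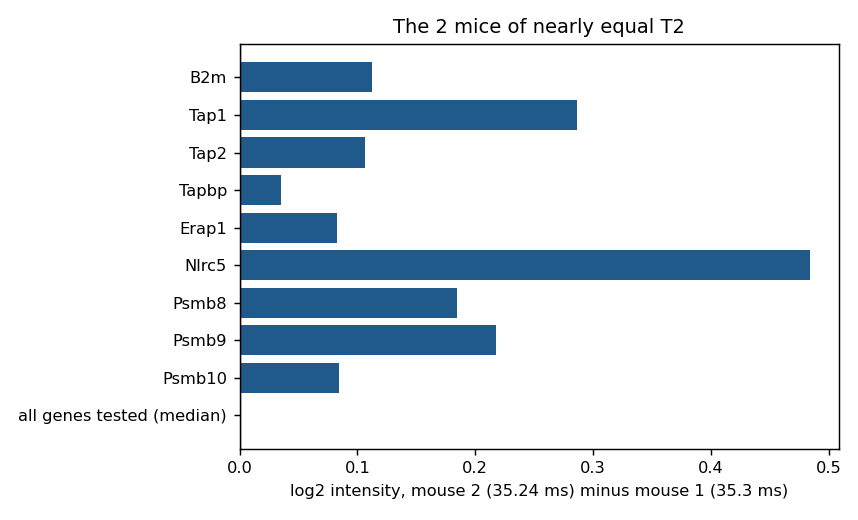
Log2 intensity in mouse 2 (T2 of 35.24 ms) minus that in mouse 1 (T2 of 35.3 ms), as bars, for the 9 members, with the median over all 6603 genes tested at the bottom, which is 0. All 9 bars lie above 0, from 0.035 for Tapbp to 0.48 for Nlrc5.

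The cells of the 2 animals differed as well. All 10 T cell genes were higher in mouse 2, with a median difference of 0.82 log2, and all 9 B cell genes were lower, with a median of -0.96. All 4 acinar genes past the filter (median -1.07) and all 3 plasma cell genes (median -0.68) were lower in mouse 2 too, while Ptprc differed by -0.15. Cd8a, a chain of the coreceptor that binds class I, read 9.21 in mouse 2 and 7.79 in mouse 1. The part of these cell types in the difference of the members was not tested. Seen over all 5 mice, 5 members were highest in mouse 2 alone (12.3% of all genes) and 3 in mouse 4 (18%). Another 1 was highest in mouse 3 (10.9%) and 0 in mouse 5, where 34.3% of all genes had their highest value. The lowest value was in mouse 1 alone for 5 members, against 15.9% of all genes. These counts and shares are of the values as deposited and were not computed under the other scalings.

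The interferon gamma response list, which holds genes that the cytokine raises and both chains of its receptor, gave no call either. Of 18 listed genes 9 passed the filter, 3 slopes were negative and 6 positive (0 and 9 after a second quantile normalization, 6 and 3 relative to Ptprc), and 0 passed the adjusted threshold (limma), with 0 at an unadjusted p under 0.05. Irf1, a transcription factor of the interferon response, read 8.47 for mouse 5, 8.79 for mouse 4, 8.70 for mouse 3, 9.01 for mouse 2 and 8.63 for mouse 1. Irgm1, an interferon-inducible GTPase, was likewise highest in mouse 2 at 7.70 and lowest in mouse 5 at 6.95, with a slope of 0.057 ± 0.044 (SE, n = 5). Of the 9 genes 5 were highest in mouse 2, and 5 were higher in mouse 2 than in mouse 1 while 4 were lower. The receptor chains were among those 4: Ifngr1 read 9.03 in mouse 2 and 9.06 in mouse 1, and Ifngr2 read 8.49 in mouse 2 and 8.95 in mouse 1. Psme2, a subunit of the interferon-inducible proteasome activator, read 8.39 in mouse 2, 7.82 in mouse 4 and 7.99 in each of the other 3 mice. Its list of activators and assembly factors had 7 genes, 6 with a negative and 1 with a positive slope (2 and 5 after a second quantile normalization), and 0 passed.

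The other factors that act on class I promoters, and the other heavy chains, gave no call. Of 15 listed factors 12 were tested, 7 with a negative and 4 with a positive slope (4 and 8 after a second quantile normalization, 9 and 3 relative to Ptprc), and 0 passed the adjusted threshold. Irf2, Irf8 and Irf9 had slopes of -0.039 ± 0.026, -0.027 ± 0.020 and 0.026 ± 0.020 (SE, n = 5). Of 14 listed heavy chains and class I-like molecules 6 were tested, 2 with a negative and 4 with a positive slope (3 and 3 relative to Ptprc) and 0 past the threshold. H2-M3, which presents formylated peptides, had a slope of 0.018 ± 0.0088, H2-Q2 0.044 ± 0.036, H2-T10 0.028 ± 0.044 and Cd1d1, which presents lipids, -0.039 ± 0.059. H2-T10 was highest in mouse 2, at 8.08, and lowest in mouse 5, at 7.51.

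Chaperones and enzymes that class I shares with other pathways had mostly negative slopes under each scaling, as did 67.9% of all genes tested as deposited. All 6 genes of peptide loading outside the members had a negative slope (5 of 6 after a second quantile normalization), 2 of them at an unadjusted p under 0.05, where 5.29% of all genes lay (303 with a negative and 46 with a positive slope), and 0 past the adjusted threshold. The 2 were Hspa5, the main chaperone of the endoplasmic reticulum, with -0.064 ± 0.019 (SE, n = 5; limma adjusted p = 0.677), and Pdia6, a disulfide isomerase, with -0.054 ± 0.021. Calr and Canx, the chaperones that hold class I during loading, had slopes of -0.030 ± 0.022 and -0.023 ± 0.014. All 6 tested genes of trimming and cross-presentation, out of 9 listed, had a negative slope too (likewise 5 of 6), 2 of them at an unadjusted p under 0.05 (Cybb and Rab27a) and 0 past the adjusted threshold. The steepest were Cybb, the catalytic chain of the phagocyte oxidase, with -0.076 ± 0.021 (limma adjusted p = 0.622), and Rab27a, a GTPase of vesicle traffic, with -0.075 ± 0.028. The mean over 10 macrophage genes was 8.78 for mouse 5, 8.74 for mouse 4, 8.17 for mouse 3, 7.56 for mouse 2 and 7.47 for mouse 1, and its part in these slopes was not tested. A list of receptors that read class I, together with related receptors, had 5 negative slopes and 1 positive among 6 tested of 12 listed. Of these 0 passed the threshold. Cd8a in that list had a slope of -0.021 ± 0.11 and Pirb -0.050 ± 0.052. Of the related receptors, Pilra had -0.039 ± 0.033 and Lilrb4a -0.048 ± 0.036.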

How the data were processed

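Expression was measured in CD45+ pancreatic cells of 5 NOD mice, 1 array each. Per the submitters' processing notes, the authors made the deposited intensities, one linear value a probe set, by RMA using Affymetrix Power Tools. Their versions and build were not given in the sources used here. Intensities ran from 2.87 to 19435, with array medians from 23.8 to 24.5. The number of arrays limits the precision.

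Values were taken to log2. Probe sets were named from GEO's platform annotation (21789 with 1 symbol, 1621 with several, 12146 unnamed here). The 6603 genes whose log2 values averaged 6 or more entered a linear model on T2 (limma 3.58.1, lmFit then eBayes; R 4.3.3), two-sided, Benjamini-Hochberg over these genes, threshold 0.05, with 3 residual degrees of freedom. Standard errors are those of the least-squares fit; intervals and p-values are from the moderated fit. The labels name 5 mice and no batch or scan, so none was tested, and with fewer than 6 mice no correlation across mice was computed. T2 falls with the sample number, so effects of handling order and T2 cannot be told apart.

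All 10 members were to be named, with up to 4 genes of each wider list by the largest moderated t, and 2 genes nearest in pattern to each member. Other genes named (S100a8, Ifngr2, Gbp3, Cd274, H2-D1's shared sets) and the comparison of mice 2 and 1 were chosen after their values were seen. The same holds for setting neutrophil and T cell genes beside Nlrc5, and for picking mice 2 and 4 in its probe sets. The members and lists were chosen with earlier results of these data known. One promoter motif is not reported here. The fit was checked on simulated data. Alternatives were weaker and stricter filters, a second quantile normalization, centring, averaging a gene's probe sets, T2 ranks, trended robust variances, array weights, levels relative to Ptprc and leaving out each mouse.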

Additional observations from a re-analysis of the deposited data

Results flagged for a closer look

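Of 18 sets of 5 values, those of the 9 members and of the means of 9 wider lists, 2 had 1 mouse far from the rest. The measure was the gap share, the distance to the next value divided by the whole range, with a limit of 0.71. About 5% of such sets would pass by chance if values were normally distributed. Over all genes tested 31.6% passed the same limit, and 15.3% of those without equal values on 3 or more arrays. Against these shares, Tapbp as 1 of 9 members is no excess. The shares are over single genes and give no reference for the means of lists. Mouse 4 stood above the others for Tapbp, with 9.63 where they lay from 9.37 to 9.42, a gap share of 0.825. For the mean of the list of receptors that read class I and related receptors, mouse 1 stood below. It read 7.51 where the others lay from 7.78 to 7.89, a gap share of 0.727. Of the 6 genes tested in that list 3 were lowest in mouse 1, among them Cd8a, at 7.79. The rest, Pirb, Pilra and Lilrb4a, were lowest in mouse 2, and Pirb was highest in mouse 1, at 7.91.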

How the results depend on the processing

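The count of members past the adjusted threshold was 0 under all 15 alternatives (limma). At an unadjusted p under 0.05 it was 2 without mouse 1 (Psmb8 and B2m) and 1 without mouse 5 (Tapbp). Slopes of B2m and Psmb8 stayed positive and those of Tapbp negative under all 15. The slopes of the other 6 members changed sign under some, and the cause was not tested. A second quantile normalization gave 0.011 for Tap2 and 0.012 for Psmb10. The rank of T2 gave -0.0040 for Psmb9. Array weights gave 0.00034 for Tap2, -0.00062 for Psmb9, 0.0030 for Psmb10 and -0.023 for Nlrc5. Levels relative to Ptprc gave -0.0079 for Psmb9, -0.0064 for Nlrc5 and -0.0067 for Erap1. Leaving out each mouse in turn gave ranges of -0.068 to 0.015 for Tap1, -0.0096 to 0.0059 for Tap2, -0.020 to 0.023 for Psmb9, -0.0063 to 0.0060 for Psmb10, -0.047 to 0.050 for Nlrc5 and -0.0096 to 0.013 for Erap1. The slope of the inducible minus the constitutive subunits was -0.0074 with array weights and ran from -0.0065 to 0.021 over the left-out mice. Over all genes, 3 passed the adjusted threshold with a filter at 7, 4 after a second quantile normalization, 4 with array weights and 181 relative to Ptprc, against 0 otherwise; no member was among them. No paired analysis was possible because the 5 mice form 1 group.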
